A study of Mus musculus with 12 samples.

Results

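The genes described here are 38 genes of the skeletal muscle sarcomere and of the calcium and energy supply of the muscle fibre, measured by RNA sequencing of mouse femur. Members were taken by gene symbol, and the transcripts of a symbol were summed. All 38 were listed in both deposited tables, out of 18335 symbols that the tables share. The study compared wild type (WT) males with Dlx3Oc-cKO males (cKO), all 5 weeks old and of mixed background, in 2 regions of the femur: the diaphysis, or shaft, and the metaphysis, the flared end next to the growth plate. In the cKO the homeobox gene Dlx3, a transcription factor of bone-forming cells, is conditionally deleted. Oc stands for the osteocalcin promoter, which drives the Cre recombinase in osteoblasts and osteocytes and not in muscle. There were 3 libraries in each of the 4 groups. The title of each sample carries a number of its own, but the labels do not say whether each library came from its own animal. Every p-value below rests on the spread among libraries, which may be technical. The labels name bone regions and mention no muscle.

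A sarcomere is the contractile unit of striated muscle, in which thick filaments of myosin pull on thin filaments of actin between 2 Z-discs. Calcium released from the sarcoplasmic reticulum binds troponin on the thin filament and so opens actin to myosin, and the calcium pump then clears it. Muscle fibres are fast or slow according to the isoforms they express: fast fibres carry the myosins of Myh4 (type IIb), Myh1 (IIx) and Myh2 (IIa), and slow fibres the myosin of Myh7 (type I), each with troponins and light chains of its own kind. Of the members, 14 were classed as fast, 8 as slow and 16 as shared by both fibre kinds or belonging to neither.

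Levels are in RPKM, reads scaled to transcript length and to library size, so they can be compared between genes. The deepest library held an estimated 53.6 M (mega) reads and the shallowest 18.4 M. Dlx3 itself stood at 3.22 to 13.1 RPKM in diaphysis WT and at 0.763 to 1.55 in diaphysis cKO, and at 8.37 to 10.1 in metaphysis WT and 1.98 to 3.24 in metaphysis cKO, with no overlap in either region. Osteoblast and osteocyte markers were abundant in all libraries, with Col1a1, a chain of type I collagen, at the top of that list. Diaphysis WT replicate 1 stood apart, with a summed level of 5102 RPKM for the 13 osteoblast and osteocyte markers against 12003 to 29123 in the other diaphysis libraries, and with 32.6% of its summed RPKM in globin genes against 15.1% to 26.5%.

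Muscle transcripts were present in every library of both regions. Together the 38 genes came to 6162, 7731 and 3322 RPKM in diaphysis WT replicates 1 to 3 and to 11265, 6045 and 3092 in diaphysis cKO replicates 1 to 3. In the metaphysis they came to 9509, 14479.5 and 9202 RPKM in WT and to 5033, 15676 and 4112 in cKO. The highest library of each region was a cKO library, and so was the lowest, so the genotypes overlapped in both regions. As a share of all summed RPKM the members made up 0.739% to 2.68% in diaphysis libraries and 1.02% to 3.86% in metaphysis libraries. In such bulk samples, fewer muscle fibres in a sample and less RNA per fibre cannot be told apart.

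The members varied far more between libraries of 1 group than most genes did. The median within-group standard deviation was 0.81 on the log2 scale for the members in the diaphysis, against 0.26 for all genes tested, and 0.82 against 0.16 in the metaphysis. Ranked among all genes tested by this spread, the members lay at percentile 93.7 or above in the metaphysis and at percentile 85.7 or above in the diaphysis. Slow fibre genes spread widest, with a median of 1.13 in the diaphysis and 1.47 in the metaphysis, against 0.78 and 0.79 for fast fibre genes.

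**Figure D1:**
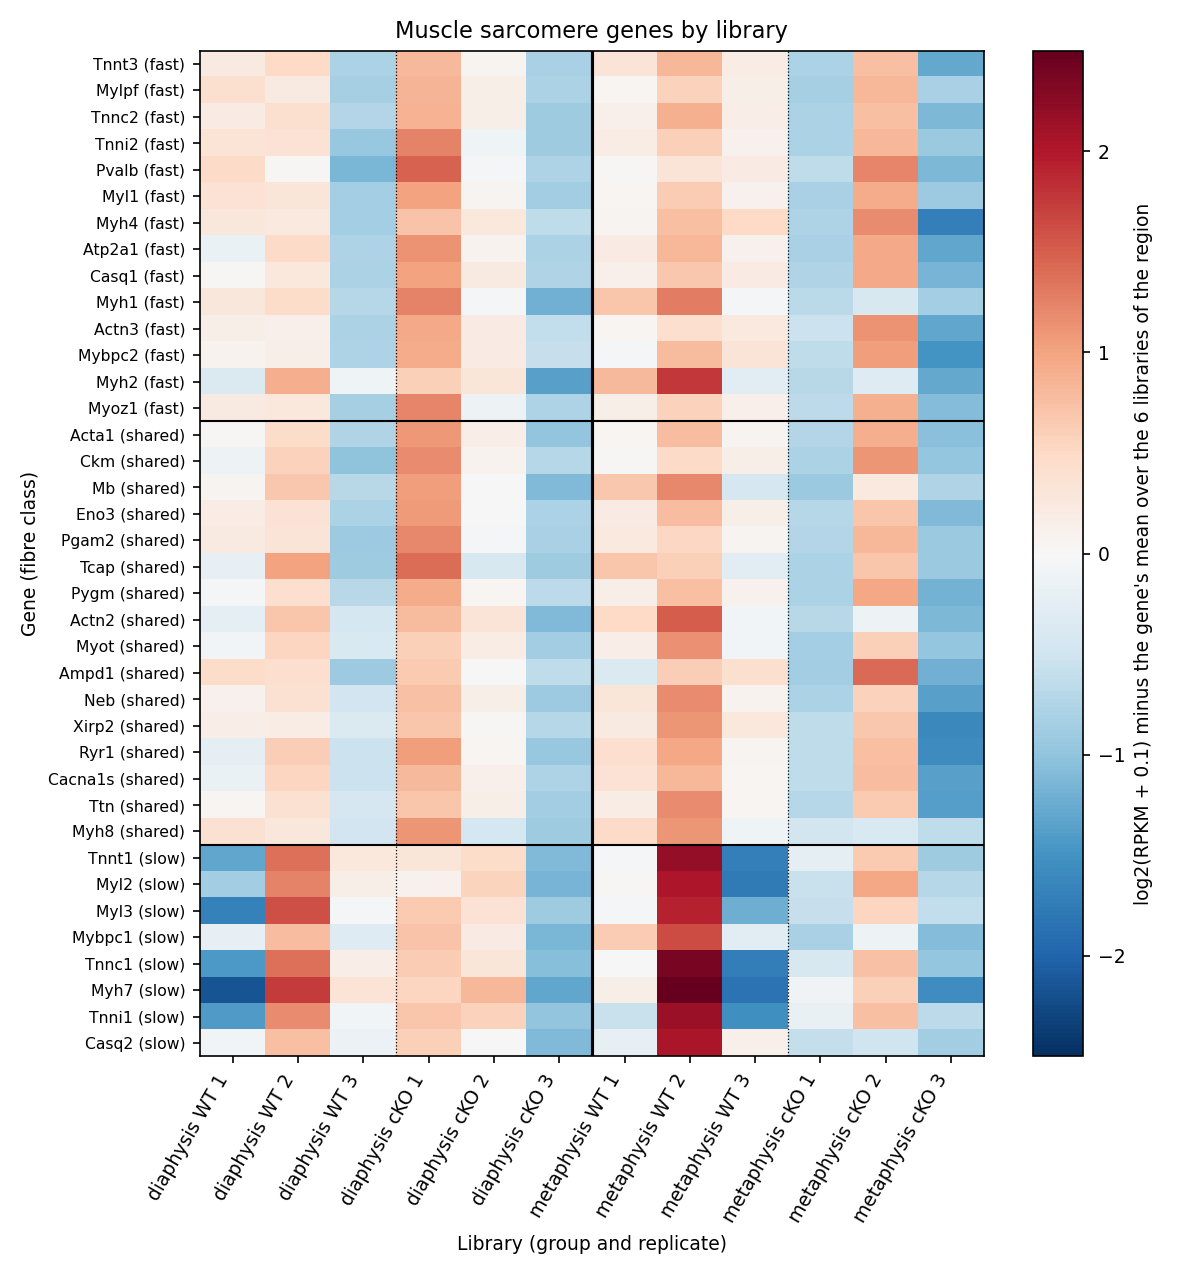
Heat map of the 38 genes (rows, grouped as fast, shared and slow) in the 12 libraries (columns, by group and replicate), coloured by log2(RPKM + 0.1) minus the gene's mean over the 6 libraries of its region. Fast and shared genes are all above their means in diaphysis cKO 1 and metaphysis WT 2. All of them but Myh1, Myh2, Myh8 and Actn2 are above their means in metaphysis cKO 2. Of the 8 slow genes, 6 are lowest in metaphysis WT 3 and 5 in diaphysis WT 1. No fast gene is lowest in either of these libraries, though Myh2 is below its mean in both.

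Myosin heavy chain, the motor of the thick filament, was mostly of the fastest kind. Myh4 stood at 301, 293 and 138 RPKM in diaphysis WT, at 405, 299 and 161 in diaphysis cKO, at 367, 587 and 492 in metaphysis WT and at 205, 795 and 107 in metaphysis cKO. The highest and the lowest Myh4 values of the metaphysis were both cKO libraries, replicates 2 and 3. Myh1 stood at 111, 126 and 55.5 RPKM in diaphysis WT, at 215, 88.0 and 39.3 in diaphysis cKO, at 173, 262 and 105 in metaphysis WT and at 66.7, 80.7 and 59.1 in metaphysis cKO. In the metaphysis all 3 cKO values of Myh1 lay below all 3 WT values, while in the diaphysis the groups overlapped. Myh2 stood at 52.5, 127 and 62.6 RPKM in diaphysis WT, at 101, 83.6 and 26.4 in diaphysis cKO, at 80.6, 157 and 37.8 in metaphysis WT and at 28.4, 36.5 and 18.9 in metaphysis cKO. Its groups did not overlap in the metaphysis either, though the gap between WT replicate 3 and cKO replicate 2 was small.

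The slow myosin Myh7 was the least abundant of these 4 adult isoforms in all 12 libraries, and Myh4 the most abundant. Myh7 stood at 4.63, 71.5 and 26.9 RPKM in diaphysis WT, at 30.6, 37.7 and 8.48 in diaphysis cKO, at 12.6, 76.2 and 3.08 in metaphysis WT and at 10.7, 17.1 and 3.79 in metaphysis cKO. Both its highest and its lowest library in each region were WT libraries. Myh8, the perinatal myosin of newborn muscle, stood at 1.24, 1.15 and 0.638 RPKM in diaphysis WT, at 2.11, 0.659 and 0.456 in diaphysis cKO, at 0.763, 1.22 and 0.475 in metaphysis WT and at 0.347, 0.370 and 0.298 in metaphysis cKO. It was the lowest member in every library, and in the metaphysis all cKO values lay below the WT values. There it reached 1 RPKM in 1 library and was not tested.

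As shares of the 4 adult isoforms, Myh4 made up 64.2%, 47.5% and 48.7% in diaphysis WT, 53.9%, 58.8% and 68.4% in diaphysis cKO, 58.0%, 54.2% and 77.2% in metaphysis WT and 66.0%, 85.5% and 56.7% in metaphysis cKO. The type I share of Myh7 was 0.989%, 11.6% and 9.51% in diaphysis WT, 4.07%, 7.43% and 3.61% in diaphysis cKO, 1.99%, 7.05% and 0.483% in metaphysis WT and 3.43%, 1.84% and 2.004% in metaphysis cKO. The cKO libraries overlapped the WT libraries in both shares and in both regions. Metaphysis cKO replicate 2, the library with the highest summed RPKM of the members, held the largest Myh4 share. Its shares of Myh1 (8.69%) and Myh2 (3.93%) were the smallest of the 12 libraries.

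**Figure D2:**
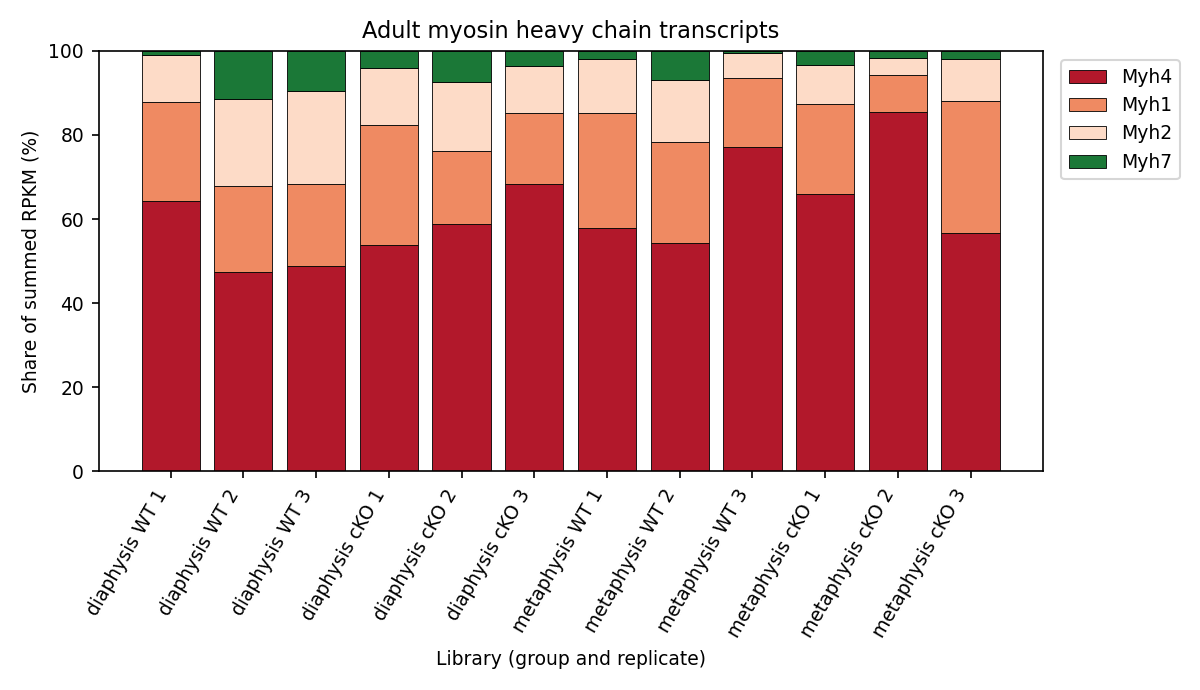
Stacked bars of the share of Myh4, Myh1, Myh2 and Myh7 in their summed RPKM (vertical axis, %) for each of the 12 libraries (horizontal axis). Myh4 is the largest share in every library, from 47.5% in diaphysis WT 2 to 85.5% in metaphysis cKO 2, and the Myh7 share runs from 0.483% in metaphysis WT 3 to 11.6% in diaphysis WT 2.

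How well these isoforms can be told apart depends on their sequence. Myh2, Myh1, Myh4 and Myh8 lie in this order on the plus strand of chromosome 11 (mm9): Myh2 at chr11:66984529-67011019, Myh1 at chr11:67013554-67038078, Myh4 at chr11:67051314-67073948 and Myh8 at chr11:67090626-67122136. Myh7 lies apart on the minus strand at chr14:55589525-55613471. The coding sequences of Myh1 and Myh2 were 91.1% identical, those of Myh1 and Myh4 90.2% and those of Myh2 and Myh4 88.2%, whereas Myh4 and Myh7 were 77.9% identical. Of the stretches of 50 bases in Myh1, 20.5% also occurred in Myh2 and 10.99% in Myh4, and 0.121% of those of Myh4 occurred in Myh7. The longest coding run identical in Myh1, Myh2 and Myh4 was 140 bases, in exons 14 and 15 of Myh4. The following 60-base coding windows are those of the 4 linked isoforms at the same place in exon 28 of Myh4 (chr11:67067962-67068021) and in exon 29 of Myh1 (chr11:67030968-67031027), Myh2 (chr11:67004852-67004911) and Myh8 (chr11:67113217-67113276), and show how reads here can be assigned; capitals mark the 25 positions at which the 4 are not all alike.
Myh4: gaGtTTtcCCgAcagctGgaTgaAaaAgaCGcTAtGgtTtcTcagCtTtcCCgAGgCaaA
Myh1: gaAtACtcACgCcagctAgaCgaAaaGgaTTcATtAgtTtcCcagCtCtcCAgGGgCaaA
Myh2: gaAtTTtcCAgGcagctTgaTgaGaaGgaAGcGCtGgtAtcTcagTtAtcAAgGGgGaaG
Myh8: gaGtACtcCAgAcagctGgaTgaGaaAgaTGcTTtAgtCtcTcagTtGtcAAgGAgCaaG

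Between pairs of these windows 14 to 20 bases differed, so a read from here belongs to 1 isoform, while a read from the shared runs does not. The window was chosen as the place, inside 1 exon of each, that tells these isoforms apart best. It is a best case and not typical of their coding sequences. How the authors treated reads that match several isoforms is not given in the sources used here, and the values of Myh1, Myh2, Myh4 and Myh8 are uncertain to that degree. The other 7 fast and slow pairs share no stretch of 50 bases and are 62.4% to 72.0% identical over their coding sequences, so this limit does not apply between them.

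The light chains and the myosin-binding protein of the thick filament also had fast and slow forms. Mylpf, the fast regulatory light chain and the most abundant thick filament gene, stood at 672, 597 and 289 RPKM in diaphysis WT, at 926, 568 and 295 in diaphysis cKO, at 1003, 1454 and 1082 in metaphysis WT and at 549.9, 1737 and 557 in metaphysis cKO. Its slow counterpart Myl2 stood at 19.7, 86.0 and 40.1 RPKM in diaphysis WT, at 38.9, 53.0 and 16.1 in diaphysis cKO, at 32.5, 129.7 and 9.25 in metaphysis WT and at 21.5, 62.0 and 19.2 in metaphysis cKO. Myl2 thus differed by up to 14.02-fold between libraries of the metaphysis where Mylpf differed by 3.16-fold, and the genotypes overlapped for both. The fast essential light chain Myl1 stood at 404, 389 and 175 RPKM in diaphysis WT, at 633, 331 and 173 in diaphysis cKO, at 577, 865 and 605 in metaphysis WT and at 318, 1062 and 299 in metaphysis cKO. The slow form Myl3 stood at 9.42, 94.0 and 30.1 RPKM in diaphysis WT, at 48.4, 39.8 and 16.5 in diaphysis cKO, at 34.1, 136 and 15.1 in metaphysis WT and at 23.7, 51.6 and 23.0 in metaphysis cKO. Replicate 2 was the highest library for Myl3 among the WT libraries of each region, as it was for Myh7 and Myl2.

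Myosin-binding protein C, which ties myosin into the thick filament, was the pair with the most even levels. Fast Mybpc2 stood at 58.9, 61.4 and 32.4 RPKM in diaphysis WT, at 105, 63.9 and 37.2 in diaphysis cKO, at 64.5, 115 and 83.1 in metaphysis WT and at 42.4, 136 and 23.4 in metaphysis cKO. Slow Mybpc1 stood at 30.7, 60.1 and 28.1 RPKM in diaphysis WT, at 57.7, 40.8 and 16.0 in diaphysis cKO, at 53.8, 108 and 28.9 in metaphysis WT and at 19.8, 31.8 and 16.3 in metaphysis cKO. Their ratio lay between 1.02 and 4.26, where the other pairs reached from 4.10 upwards. In the metaphysis the Mybpc1 level of cKO replicate 2 was just above that of WT replicate 3, so its groups overlapped. Mybpc1 was lowest in cKO replicate 3 of both regions, unlike most of the genes classed as slow.

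Skeletal actin and the troponins of the thin filament were the most abundant class. Acta1, skeletal alpha-actin, was the highest member in every library: it stood at 931, 1262 and 544 RPKM in diaphysis WT, at 1955, 1029 and 465 in diaphysis cKO, at 1368, 2262 and 1389.9 in metaphysis WT and at 802, 2486 and 647 in metaphysis cKO. Fast troponin T, Tnnt3, which anchors the troponin complex to tropomyosin, stood at 741, 898 and 368 RPKM in diaphysis WT, at 1109, 662 and 363 in diaphysis cKO, at 1190.2, 1698 and 1087 in metaphysis WT and at 551, 1611 and 396 in metaphysis cKO. For both genes, 2 of the 3 metaphysis cKO libraries lay below all WT libraries and replicate 2 among or above them. Slow troponin T, Tnnt1, stood at 21.6, 139 and 64.3 RPKM in diaphysis WT, at 66.3, 73.2 and 24.9 in diaphysis cKO, at 37.6, 176 and 11.6 in metaphysis WT and at 33.2, 61.1 and 20.8 in metaphysis cKO. Its lowest library in each region was a WT library, replicate 1 in the diaphysis and replicate 3 in the metaphysis, in which Tnnt3 was not low.

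Troponin I, the inhibitory subunit, and troponin C, the calcium sensor, split the same way. Fast Tnni2 stood at 424, 430.1 and 174 RPKM in diaphysis WT, at 793, 309.99 and 181 in diaphysis cKO, at 688, 910.4 and 649 in metaphysis WT and at 349, 1077 and 315 in metaphysis cKO. Slow Tnni1 stood at 5.83, 35.6 and 14.9 RPKM in diaphysis WT, at 25.5, 23.4 and 7.86 in diaphysis cKO, at 9.42, 62.5 and 4.71 in metaphysis WT and at 12.2, 23.4 and 8.79 in metaphysis cKO. The ratio of Tnni2 to Tnni1 was highest in the WT libraries that were lowest for slow genes, at 72.8 in diaphysis WT replicate 1 and 138 in metaphysis WT replicate 3. Fast Tnnc2 stood at 560.5, 637 and 290.5 RPKM in diaphysis WT, at 879, 537 and 263 in diaphysis cKO, at 546, 925 and 557 in metaphysis WT and at 288, 837 and 228 in metaphysis cKO. Tnnc1, the form of slow and cardiac muscle, stood at 8.20, 58.0 and 24.9 RPKM in diaphysis WT, at 34.5, 27.6 and 10.6 in diaphysis cKO, at 15.6, 81.5 and 4.66 in metaphysis WT and at 11.9, 26.4 and 8.06 in metaphysis cKO. The genotypes overlapped for all 4 genes in both regions. Neb, which encodes the giant thin filament ruler nebulin, ran from 5.19 to 30.3 RPKM.

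At the Z-disc the 2 most abundant members were Tcap, which encodes the titin cap telethonin, and Actn3, the alpha-actinin of fast fibres. Tcap stood at 66.0, 152 and 41.0 RPKM in diaphysis WT, at 199.98, 57.5 and 41.1 in diaphysis cKO, at 204, 189 and 103 in metaphysis WT and at 72.6, 204 and 66.4 in metaphysis cKO. Actn3 stood at 73.4, 72.7 and 38.2 RPKM in diaphysis WT, at 129, 76.3 and 43.4 in diaphysis cKO, at 95.4, 125 and 109.7 in metaphysis WT and at 63.8, 202 and 37.6 in metaphysis cKO. Both overlapped between genotypes. Actn2, the alpha-actinin made in all fibres, stood at 55.1, 111 and 36.9 RPKM in metaphysis WT and at 23.9, 35.2 and 17.8 in metaphysis cKO, with no overlap. The remaining members of this class, Myoz1, Myot, Xirp2 and the titin gene Ttn, ran from 2.73 RPKM for Ttn to 132 for Myoz1.

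Among the calcium handling genes Pvalb, the parvalbumin that buffers calcium in fast fibres, stood at 332, 244 and 108 RPKM in diaphysis WT, at 668, 233 and 139.8 in diaphysis cKO, at 621, 767 and 701 in metaphysis WT and at 395, 1422 and 279.9 in metaphysis cKO. Atp2a1, the fast calcium pump of the sarcoplasmic reticulum, stood at 229.9, 358 and 151 RPKM in diaphysis WT, at 562, 274 and 149 in diaphysis cKO, at 371, 568 and 347 in metaphysis WT and at 182, 621 and 129.7 in metaphysis cKO. Metaphysis cKO replicate 2 was the highest of the 12 libraries for both. The calcium store protein of fast fibres, Casq1, stood at 87.5, 103 and 49.5 RPKM in diaphysis WT, at 173, 99.2 and 50.9 in diaphysis cKO, at 149, 218 and 158 in metaphysis WT and at 81.3, 263 and 61.1 in metaphysis cKO. Its slow and cardiac counterpart Casq2 stood at 2.56, 4.59 and 2.42 RPKM in diaphysis WT, at 4.13, 2.67 and 1.20 in diaphysis cKO, at 2.12, 10.5 and 2.69 in metaphysis WT and at 1.59, 1.72 and 1.31 in metaphysis cKO. All 3 metaphysis cKO values of Casq2 lay below the WT values, at levels near the lower limit for testing. Ryr1 and Cacna1s, the calcium release channel and the voltage sensor that triggers it, ran from 3.01 to 24.0 RPKM.

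The energy supply of the fibre was led by Ckm, muscle creatine kinase, which stood at 310.1, 503 and 169 RPKM in diaphysis WT, at 771, 361 and 206 in diaphysis cKO, at 653, 882 and 699.8 in metaphysis WT and at 368, 1370.4 and 327 in metaphysis cKO. Mb, the oxygen-binding myoglobin of oxidative fibres, stood at 206, 314 and 121 RPKM in diaphysis WT, at 403, 197 and 91.2 in diaphysis cKO, at 346, 496 and 163 in metaphysis WT and at 114, 256 and 129 in metaphysis cKO. In metaphysis cKO replicate 2, Ckm was above every other library, while Mb was below 2 of the 3 WT libraries. The glycolytic genes Eno3, Pygm and Pgam2 and the AMP deaminase Ampd1 ran from 5.88 RPKM for Ampd1 to 373 for Eno3.

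Set side by side, the sums of fast and slow fibre genes showed how the balance moved between libraries. Fast genes summed to 4092, 4382 and 1953 RPKM in diaphysis WT, to 6788, 3659.9 and 1945 in diaphysis cKO, to 6006, 8758 and 6090.1 in metaphysis WT and to 3165, 10013 and 2546 in metaphysis cKO. Slow genes summed to 103, 549 and 232 RPKM in diaphysis WT, to 306, 298 and 102 in diaphysis cKO, to 198, 779.5 and 80.1 in metaphysis WT and to 135, 275 and 101 in metaphysis cKO. The ratio of the fast to the slow sum was 39.9, 7.98 and 8.43 in diaphysis WT, 22.2, 12.3 and 19.1 in diaphysis cKO, 30.4, 11.2 and 76.1 in metaphysis WT and 23.5, 36.4 and 25.1 in metaphysis cKO. WT libraries held both the highest and the lowest ratio of each region, and the cKO libraries lay inside the WT range.

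As group values, the log2 ratio of the fast to the slow sum was 3.80 ± 1.32 (SD, n = 3) in diaphysis WT and 4.12 ± 0.44 (SD, n = 3) in diaphysis cKO. In the metaphysis it was 4.89 ± 1.38 (SD, n = 3) in WT and 4.80 ± 0.34 (SD, n = 3) in cKO. The cKO minus WT difference of 0.32 in the diaphysis and -0.09 in the metaphysis was smaller than the spread within WT in each region. The difference in the metaphysis changed sign to 0.02 when Tnnt3, the fast gene with the highest mean, and Tnnt1, the slow gene with the highest mean, were left out of the sums.

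**Figure D3:**
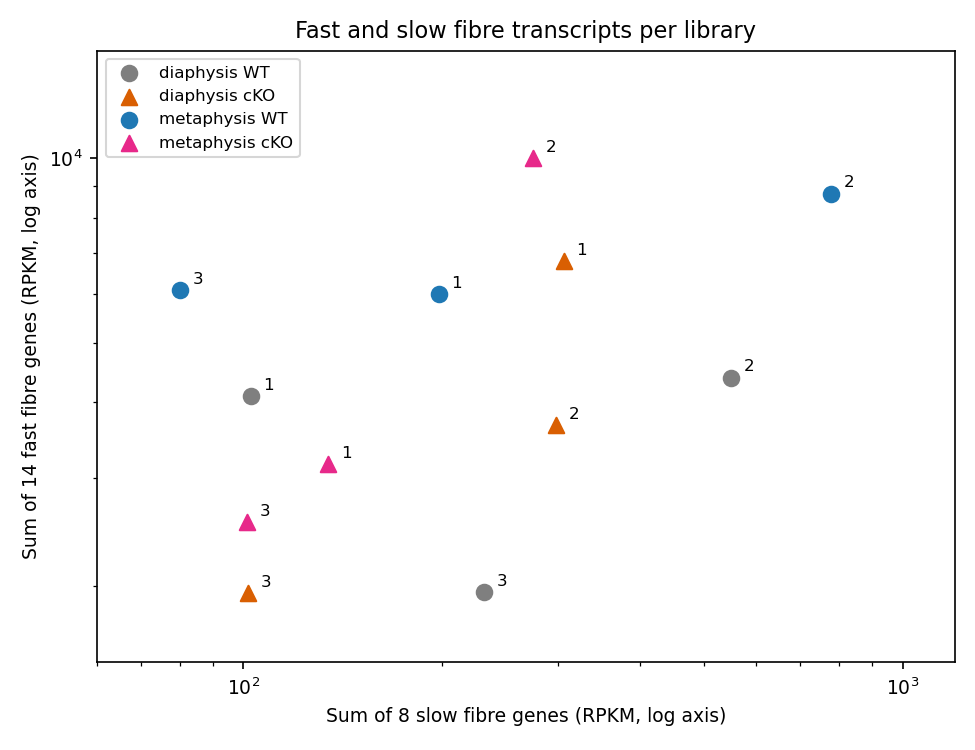
Summed RPKM of the 14 fast fibre genes (vertical, log axis) against that of the 8 slow fibre genes (horizontal, log axis), 1 point per library with its replicate number, circles for WT and triangles for cKO. Metaphysis WT 3 and diaphysis WT 1 have few slow transcripts for their fast sum, at ratios of 76.1 and 39.9, and diaphysis WT 2 and WT 3 have the most, at 7.98 and 8.43.

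The slow genes shared their high and low libraries. In the metaphysis all 8 slow genes were highest in WT replicate 2 and 6 of them were lowest in WT replicate 3. Of the 14 fast genes there, 10 were highest in cKO replicate 2 and 13 were lowest in cKO replicate 3. Of the 16 shared genes there, 10 were highest in WT replicate 2 and 5 in cKO replicate 2, and 15 were lowest in cKO replicate 3. Over all 38 members, 22 were highest in WT replicate 2 and 15 in cKO replicate 2. In the diaphysis all 8 slow genes were highest in WT replicate 2 and 5 were lowest in WT replicate 1, while 13 of 14 fast genes, all but Myh2, and all 16 shared genes were highest in cKO replicate 1. Diaphysis WT replicate 1 is the library with low osteoblast and high globin levels, and the part of these in its slow values was not tested.

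Across libraries, the profile of each gene was set against the mean profile of the 37 members tested in both regions, by the smaller of its Pearson r over the 6 libraries of each region. The mean includes the member itself, and libraries also differ in depth and composition, so this is a description. Among the members Myot (0.986), which encodes a Z-disc protein, and the giant proteins' genes Ttn (0.976) and Neb (0.970) followed the mean most closely. Myh7 (0.61), Tnnt1 (0.65), Myl2 (0.67) and Myl3 (0.69), all slow, followed it least. The slow class was not uniform, as Mybpc1 (0.88) followed the mean more closely than the fast gene Myh1 (0.78). Of 12321 genes compared, those outside the members that were most like it included Rpl3l (0.987), Eef1a2 (0.985), Des (0.983), Ndrg2 (0.982), Tmem38a (0.980), Smyd1 (0.978), Bin1 (0.978), Ldb3 (0.976) and Jph1 (0.975). Rpl3l encodes the ribosomal protein form of striated muscle, Eef1a2 the elongation factor form of muscle and neurons, and Des the intermediate filament desmin.

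In the metaphysis 1 member, Myh1, fell in the cKO and 36 of the 37 tested did not pass the test. Myh1 fell from 179.8 ± 78.7 RPKM in WT to 68.8 ± 10.96 in cKO (SD, n = 3 each), a log2(RPKM + 0.1) difference of -1.30 ± 0.31 (SE; limma adjusted p = 0.0395, threshold 0.05). Of the 12641 genes tested there, 3.89% passed as lower in cKO and 7.51% as higher, so 1 lower and 0 higher among 37 members is no more than the background (11.4% in either direction). At an unadjusted p under 0.05 there were 5 members, Myh1, Myh2, Actn2, Mybpc1 and Casq2, against 30.6% of all genes. Their log2 differences other than that of Myh1 were -1.53 ± 0.49 (SE) for Myh2 (limma adjusted p = 0.0839), -1.30 ± 0.41 for Actn2 (limma adjusted p = 0.0810), -1.34 ± 0.46 for Mybpc1 (limma adjusted p = 0.102) and -1.30 ± 0.54 for Casq2 (limma adjusted p = 0.154). For Myh1, Myh2, Actn2 and Casq2, which are 4 of 37 members, all cKO values lay below all WT values, as they did for 18.4% of all genes, and for 0 members did all cKO values lie above, against 18.7%.

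The call of Myh1 depended on single libraries and on settings of the fit. It was lost without WT replicate 1 (limma adjusted p = 0.105), without WT replicate 2 (limma adjusted p = 0.0839), without cKO replicate 1 (limma adjusted p = 0.0779) and without cKO replicate 3 (limma adjusted p = 0.110). It was also lost without the filter on low values (limma adjusted p = 0.0952), without the variance trend (limma adjusted p = 0.0539) and with all 12 libraries in 1 fit (limma adjusted p = 0.278). With each library left out, its difference stayed between -1.64 and -0.98.

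All 37 log2 differences in the metaphysis were below 0, against 54.9% of all genes, and their median was -0.70 against -0.04. Since most of these genes shared their high and low libraries, the 37 signs are not 37 separate observations. By class the median was -0.69 for 14 fast genes, with Myh1 as the 1 past the test, -0.42 for 8 slow genes, with 0 past, and -0.82 for 15 shared genes, with 0 past. By role it was -0.71 for the thick filament, -0.59 for the thin filament and troponin, -0.82 for the Z-disc and titin, -0.80 for calcium handling and -0.61 for energy metabolism. The smallest difference was that of Tnni1, slow troponin I, at -0.05 ± 0.88 (SE).

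**Figure D4:**
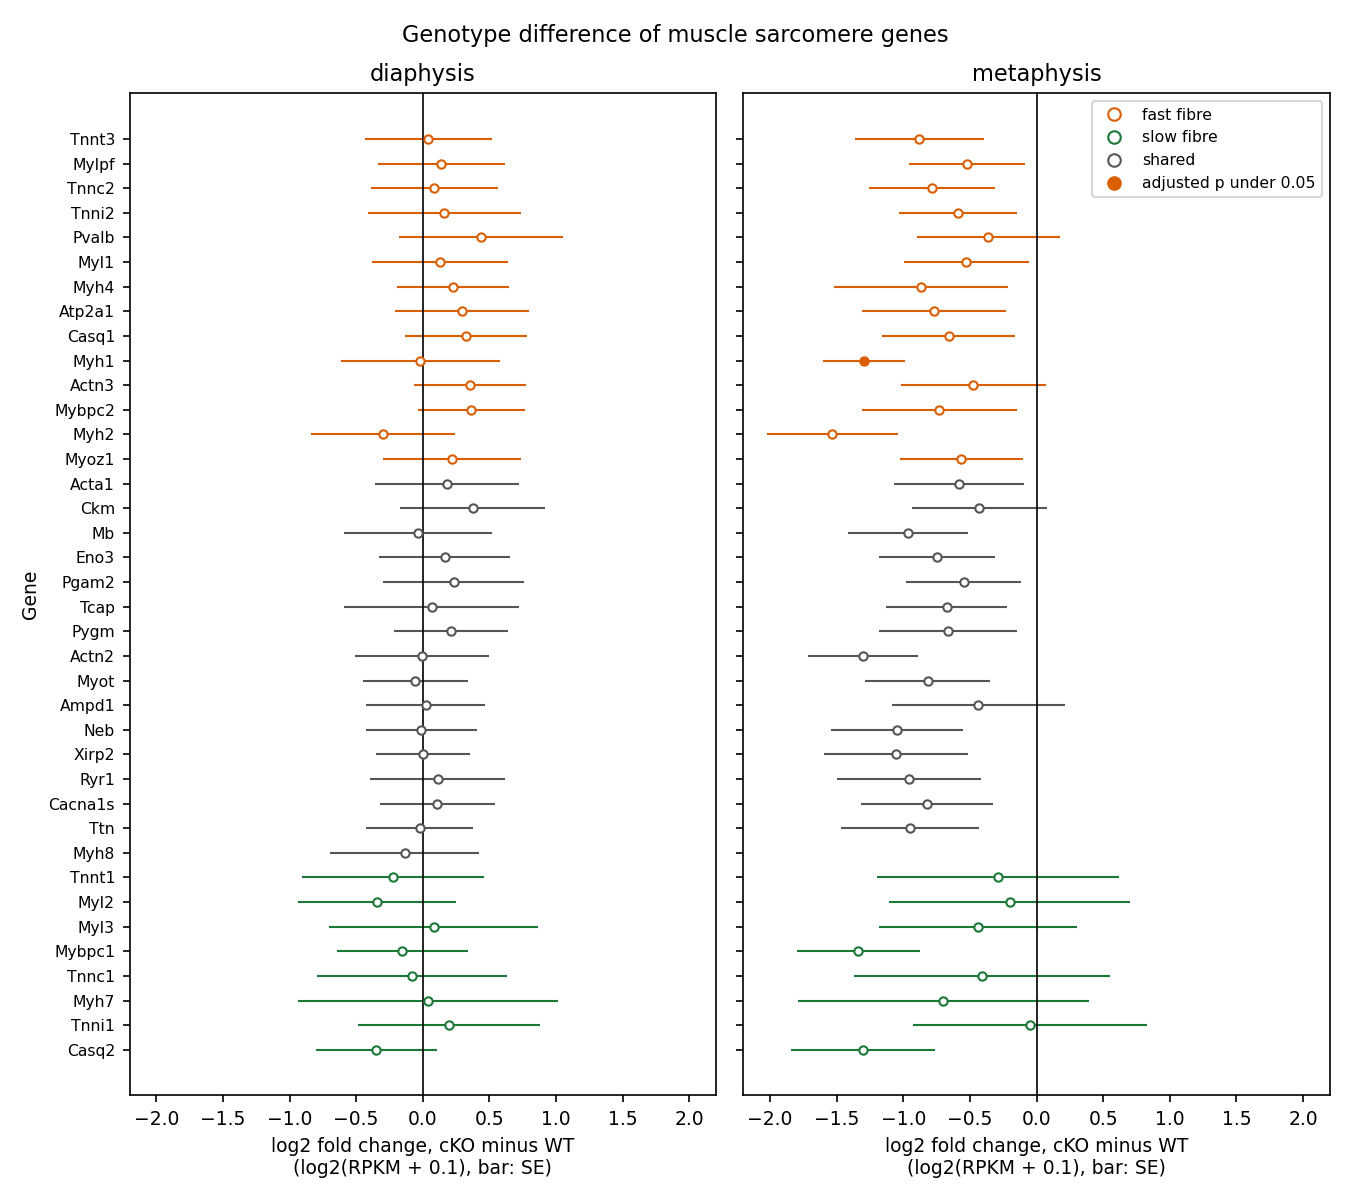
Log2 fold change of each gene, cKO minus WT, on the log2(RPKM + 0.1) scale with its standard error as a bar, in the diaphysis (left) and the metaphysis (right); filled points passed the limma test at an adjusted p under 0.05. Diaphysis values scatter around 0, from -0.35 to 0.44, while metaphysis values all lie below 0, from -1.53 to -0.05, with Myh1 as the filled point.

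The number of members past the test turned on metaphysis cKO replicate 2. With each library left out in turn, 25 of 37 members passed as lower when cKO replicate 2 was left out (background 4.18% lower, 9.65% in either direction), 3 when WT replicate 3 was left out (Mybpc1, Myh1 and Myh2; background 0.725% lower, 5.35% in either direction) and 0 in each of the other 4 fits. The 25 comprised 13 of 14 fast genes, all but Myh2, 12 of 15 shared genes and 0 of 8 slow genes, with log2 differences from -1.67 for Myh4 to -1.06 for Pvalb. In the fit without that library, Acta1 stood at -1.18 ± 0.24 (SE; limma adjusted p = 0.0323), Ckm at -1.09 ± 0.15 (limma adjusted p = 0.0231) and Tnnt3 at -1.48 ± 0.23 (limma adjusted p = 0.0237). The slow genes Myh7 at -1.17 ± 1.19 (limma adjusted p = 0.568) and Myl2 at -0.74 ± 0.94 (limma adjusted p = 0.655) did not pass. In raw levels, cKO replicates 1 and 3 lay below all 3 WT libraries for 31 of 37 members, against 24.2% of all genes, and the 6 exceptions were the slow genes Myh7, Myl2, Myl3, Tnnt1, Tnni1 and Tnnc1. Both this count and the 25 calls leave out the cKO library with the highest member sum. That by itself favours lower cKO values, so neither is a test of genotype. Most members also shared their high and low libraries. With all 3 cKO libraries, cKO lay wholly below WT for 4 of 37 members, against 18.4% of all genes. Nothing in the labels sets cKO replicate 2 apart, and it is kept in all other values. It held 32.5 M reads, 13.51% globin, the lowest share of the 12 libraries, and 497 RPKM of summed tendon genes, the highest, and the part of these in its muscle values was not tested.

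**Figure D5:**
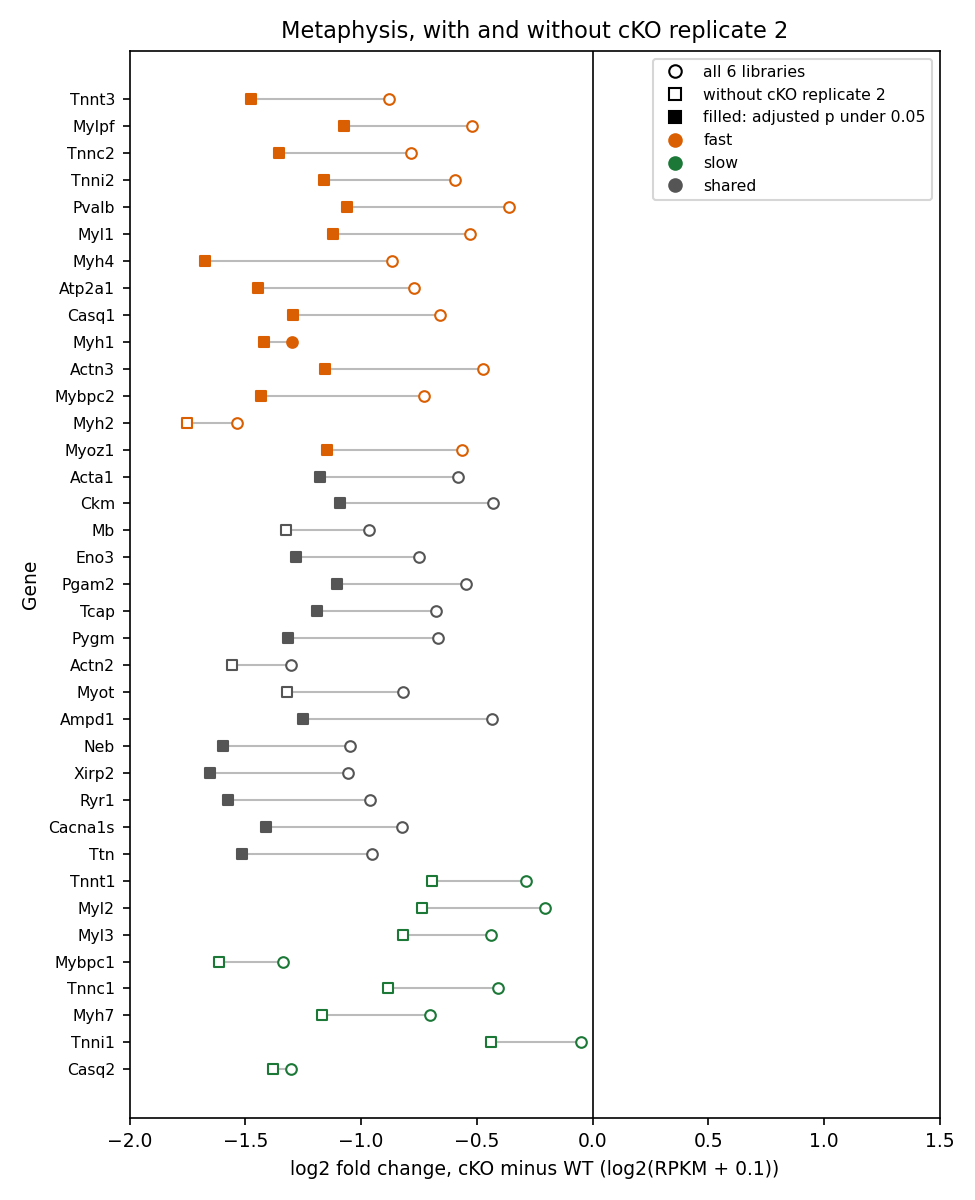
Log2 fold change in the metaphysis, cKO minus WT, of the 37 genes tested, with all 6 libraries (circles) and without cKO replicate 2 (squares); filled symbols passed the limma test at an adjusted p under 0.05. Leaving out this library moves each gene to the left, and the filled symbols go from Myh1 to 25 fast and shared genes, with none among the slow genes.

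In the diaphysis 0 of 38 members passed the limma test, as did 0% of the 12540 genes tested there. At an unadjusted p under 0.05 there were 0 members, against 0.686% of all genes. The members' log2 differences ran from -0.35 for Casq2 to 0.44 for Pvalb, with a median of 0.08 against 0.00 for all genes, and 13 of the 38 were below 0 against 49.3%. The median was 0.19 for fast, -0.12 for slow and 0.04 for shared genes. The groups overlapped for all 38 members, while cKO lay wholly lower for 0.789% of all genes and wholly higher for 2.24%. The sign of the median turned on single libraries: it was -0.34 without cKO replicate 1, -0.19 without WT replicate 3 and 0.56 without cKO replicate 3. Without WT replicate 1, the library that stood apart, it was 0.12, with 14 members below 0 and 0 past the limma test.

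The genotype difference was also compared between the regions, as a contrast in 1 fit of all 12 libraries. In this limma fit 0 of 38 members passed, as did 0% of 12959 genes, and the smallest adjusted p of a member was 0.908. At an unadjusted p under 0.05 there were 526 genes, none of them a member. The median contrast, diaphysis minus metaphysis, was 0.86 for the members and 0.03 for all genes. For Myh1 it was 1.28 ± 0.76 (SE), so that its call in 1 region and not in the other was not shown to differ between them.

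WT levels of the 2 regions come from separately made tables and are given beside each other, untested. The metaphysis WT mean was above the diaphysis WT mean for 36 of 38 members, with a median ratio of 1.83. No share over all genes is set beside this count, and most members shared their high and low libraries. The count therefore does not show a trait particular to the members. The exceptions were Myh7 (0.893) and Myh8 (0.812), and the highest ratio was that of Pvalb (3.05).

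Other genes of the muscle fibre that are not members followed the same libraries. Of 74 genes on this list, 72 were in the tables and 69 were tested in each region. In the metaphysis 1 fell, 1 rose and 67 did not pass, where 3.89% of all genes passed as lower and 7.51% as higher. There 65 of 69 were below 0, against 54.9% of all genes, with a median of -0.68 against -0.04. As for the members, these signs are not separate observations. The gene that fell was Myl4, the essential light chain of embryonic muscle and atrium, at -0.94 ± 0.12 (SE; limma adjusted p = 0.0109). Dysf, the membrane repair protein dysferlin, rose by 0.61 ± 0.15 (limma adjusted p = 0.0452). Neither tracked the sarcomere genes: Myl4 stood at 31.4, 27.4 and 30.6 RPKM in metaphysis WT and at 13.98, 17.9 and 14.8 in metaphysis cKO, with little spread within groups. In the diaphysis 0 of 69 passed in limma, with 0 at an unadjusted p under 0.05. The most abundant of the list were the tropomyosins Tpm1, Tpm2 and Tpm3, which cover actin in the thin filament, and all 3 are also made outside skeletal muscle. Tpm1 was at 636, 1782 and 634 RPKM in metaphysis cKO, with replicate 2 high, whereas Tpm3 was at 138, 140.1 and 133.

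Of 10 tested myogenic regulators and satellite cell genes, Cdh15, which encodes M-cadherin, rose in the metaphysis by 1.12 ± 0.16 (SE; limma adjusted p = 0.0123) and Mef2a, a transcription factor made in many tissues, rose by 0.69 ± 0.09 (limma adjusted p = 0.0115). Among all genes tested in the metaphysis, 7.51% passed as higher. The other 8 did not pass, among them Myod1 at -0.42 ± 0.43, Myog at -0.56 ± 0.60 and Myf6 at -0.68 ± 0.51 (SE), regulators of muscle differentiation. Myf6 stood at 2.82, 6.78 and 4.69 RPKM in metaphysis WT and at 2.04, 6.10 and 1.65 in metaphysis cKO, high in replicate 2 of both groups as most members were. Pax7, the defining satellite cell marker, stayed at 0.013 to 0.209 RPKM in all 12 libraries, and Myog, the regulator of fusing myoblasts, at 0.518 to 2.32. The most abundant of this list were Mef2c, Mef2d and Mef2a. At the neuromuscular junction, Lrp4, a receptor that bone cells also carry, rose by 0.83 ± 0.12 (limma adjusted p = 0.0133), and the other 3 genes tested did not pass.

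Heart muscle shares Myh7, Myl2, Myl3, Tnnc1 and Casq2 with slow fibres, so cardiac genes were read beside them. Of 10 cardiac genes, 8 were in the metaphysis table, 3 were tested and 0 passed; at an unadjusted p under 0.05 in limma there were 0. Nppa, a defining atrial marker, was at 0 to 0.185 RPKM in all libraries and Myl7 was listed at 0 throughout the metaphysis table. Myh6, cardiac alpha-myosin, stood at 1.09, 15.1 and 0.903 RPKM in metaphysis WT, high in replicate 2 as Myh7 was. Actc1, cardiac alpha-actin, which young skeletal muscle also makes, was the most abundant of the list and was highest, at 101 RPKM, in the same library.

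Markers of other tissues also differed between the groups of the metaphysis, and their part in the muscle values was not tested. Among all genes tested there, 7.51% passed as higher and 3.89% as lower, and 30.6% had an unadjusted p under 0.05 in limma. Of 13 osteoblast and osteocyte markers 5 rose there, Alpl, Ibsp, Runx2, Sp7 and Spp1, with a summed level of 15221 to 19618 RPKM in WT and 23590 to 25234 in cKO. Of 8 cartilage markers 5 rose, Acan, Col10a1, Col9a1, Hapln1 and Matn1, summing to 633 to 895 RPKM in WT and 1298 to 2083 in cKO. Of 9 red cell markers 3 fell, Alas2, Ermap and Gata1. Of 8 tendon and ligament genes Scx rose, and of 8 tested smooth muscle and pericyte genes Cspg4 and Smtn rose. Of 8 neutrophil, 6 adipocyte and 5 peripheral nerve markers tested, 0 passed in limma, with 0, 1 and 2 at an unadjusted p under 0.05, and no skin marker reached the level for testing. Tendon genes summed to 245, 359 and 122 RPKM in metaphysis WT and to 204, 497 and 323 in metaphysis cKO. Replicate 2 was the highest of each group, as for the summed muscle genes. In the diaphysis, tendon and muscle sums did not share their highest libraries. Tendon genes summed there to 27.4, 185 and 230 RPKM in WT and to 100, 173 and 142 in cKO. The highest tendon sum of diaphysis WT was in replicate 3, which had the lowest muscle sum. In diaphysis cKO the lowest tendon sum was in replicate 1, which had the highest muscle sum.

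The sequence at the starts of the members was searched for motifs known from muscle promoters. Any part of these motifs in the shared high and low libraries of the members was not tested. RefSeq promoters (GRCm38.p6, 250 bases before to 50 after the start) were held for 30 of the 38 members, in 36 promoters. The general E-box CANNTG, bound by MyoD-type factors, occurred in 88.9% of them against 72.3% of all 32851 promoters, and its form CAGCTG, each match of which is also a CANNTG match, in 18 of 36 (50%) against 16.3%. The MCAT motif CATTCC occurred in 33.3% against 14.7% and TATAAA in 22.2% against 13.6%. A loose MEF2-like pattern, CTA and TAG with any 4 bases between them, occurred in 5.56% against 3.69%. Its middle bases were not limited, so these are not shares of MEF2 sites. The motifs were all searched on either strand. CAGCTG occurred in 5 of 11 fast promoters, from 10 genes, and in 5 of 11 slow promoters, from 8 genes. The slow matches include both windows of Tnni1, which overlap and hold the same site, and both windows of Myl2. The equal shares are thus shares of promoters and not of genes. Printed below are promoters of the 4 adult myosins, each of 300 bases and 5′ to 3′ along the gene. They are Myh4 (chr11:67237562-67237861, plus strand), Myh1 (chr11:67199852-67200151, plus), Myh2 (chr11:67170777-67171076, plus) and Myh7 (chr14:54994577-54994876, minus). Capitals mark matches of these motifs, other than the general E-box, on either strand.
Myh4: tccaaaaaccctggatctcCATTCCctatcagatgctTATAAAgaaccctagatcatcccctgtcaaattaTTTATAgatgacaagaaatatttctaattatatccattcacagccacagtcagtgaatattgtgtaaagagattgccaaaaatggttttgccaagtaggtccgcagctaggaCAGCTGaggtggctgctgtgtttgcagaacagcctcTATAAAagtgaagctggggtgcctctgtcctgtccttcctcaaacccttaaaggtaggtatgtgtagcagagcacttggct
Myh1: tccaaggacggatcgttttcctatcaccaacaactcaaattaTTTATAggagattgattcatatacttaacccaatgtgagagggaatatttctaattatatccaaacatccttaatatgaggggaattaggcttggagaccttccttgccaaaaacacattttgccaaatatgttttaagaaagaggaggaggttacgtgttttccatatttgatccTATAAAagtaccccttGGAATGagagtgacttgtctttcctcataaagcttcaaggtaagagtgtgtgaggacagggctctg
Myh2: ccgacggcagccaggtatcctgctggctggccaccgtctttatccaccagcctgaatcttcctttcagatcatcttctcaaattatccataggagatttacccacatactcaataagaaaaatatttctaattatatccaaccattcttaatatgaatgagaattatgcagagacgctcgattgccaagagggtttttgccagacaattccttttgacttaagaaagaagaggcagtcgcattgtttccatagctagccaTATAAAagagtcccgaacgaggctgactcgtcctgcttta
Myh7: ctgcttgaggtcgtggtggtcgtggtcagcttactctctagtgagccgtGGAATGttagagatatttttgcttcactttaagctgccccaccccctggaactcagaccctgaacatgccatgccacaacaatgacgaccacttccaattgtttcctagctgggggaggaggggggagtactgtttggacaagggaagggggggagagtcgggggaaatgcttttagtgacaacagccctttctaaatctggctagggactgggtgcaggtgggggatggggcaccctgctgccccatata

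The Myh4 window held CAGCTG at -67 from the start and TATAAA at -31, and that of Myh1 held TATAAA at -32. That of Myh2 had a TATAAA match at 11 after the start, and that of Myh7 a CATTCC match at -201 with no other of these. RefSeq holds another start of Myh7, with the window chr14:54994500-54994799, which held none of the capitalised motifs. A match describes the letters only.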

How the data were processed

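RNA was extracted from the femur regions with Trizol and made into TruSeq RNA libraries, per the labels' protocols. The kit does not mark the strand. The authors deposited 1 table per region with RPKM values per RefSeq transcript (19067 symbols in the diaphysis, 18778 in the metaphysis). Build mm9, Partek 6.6, Bowtie 0.12.7.0, TopHat 1.3.2 and CASAVA 1.8.2 are listed per the submitters' processing notes. The handling of shared reads is not given in the sources used here.

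Depth was read from the steps of low values, of which 71.8% to 77.1% lay within 0.1 of whole reads (chance 20%), too few to rebuild counts. Transcripts were summed per symbol. Genes with at least 1 RPKM in 3 of 6 libraries (3 of 12 for the contrast between regions) were fitted as log2(RPKM + 0.1), which understates changes of low genes, by limma 3.58.1 (R 4.3.3) with a variance trend, 2-sided, with Benjamini-Hochberg adjustment over all genes. Every adjusted p is from these fits. Replicate numbers follow the record order.

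The members, fibre classes, motifs and gene lists were chosen with earlier results of these data known. Values per library are given for the 2 most abundant members of each role, the 8 fast and slow pairs, Myh1, Myh2, Myh8 and members past the threshold. The metaphysis values of Actn2, Myl4, Myf6 and Myh6 and those of Tpm1 and Tpm3 in cKO were added after their values were seen. Myosin coordinates are from GENCODE vM1 (mm9). Summaries used Python 3.11.15 with pandas 2.3.3 and numpy 2.4.6, alignments Biopython 1.88 and figures matplotlib 3.10.9. Some results on genes outside the members are not reported here.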

Additional observations from a re-analysis of the deposited data

How the results depend on the processing

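In the metaphysis the count of members past the threshold was 1 with all libraries and ranged from 0 to 25 with each library left out. It was 0 without the filter on low values, 0 without the variance trend and 0 with all 12 libraries in 1 fit, and the Myh1 difference of -1.30 was then no longer past the threshold (limma adjusted p = 0.0952, 0.0539 and 0.278). It stayed at 1 in the other 5 settings: a pseudocount of 1 or 0.01, the highest transcript per symbol, libraries scaled to the same median and values rescaled without globin genes. The counts of 0 in the diaphysis and for the contrast between regions did not change in any setting. The log2 difference in summed member level, cKO minus WT, was 0.14 in the diaphysis (-0.32 to 0.61 with each library left out) and -0.66 in the metaphysis (-1.25 to -0.28). That of the ratio of fast to slow sums was 0.32 in the diaphysis (-0.08 to 1.08) and -0.09 in the metaphysis (-0.79 to 0.59). Over all genes, the metaphysis fit called 1441, against 789 without the filter, 8 with all 12 libraries in 1 fit and 105 to 1418 with each library left out; the contrast between regions called 0, but 124 without diaphysis WT replicate 1, 0 of them members. No paired analysis was possible because the labels give the libraries no replicate numbers or pairing. With 3 libraries per group and a within-group spread this wide, differences smaller than the spread could not be resolved. In the shallowest library 10 reads on 2 kb correspond to 0.271 RPKM.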
